A study of Mus musculus with 6 samples.

Results

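The genes described here are 34 genes of lysine acetylation in mouse blastocysts: the 7 sirtuins, the 11 zinc-dependent histone deacetylases, 10 acetyltransferases, 4 scaffold subunits of acetyltransferase complexes (Brd1, Brpf1, Jade2 and Jade3), and the acetyl-lysine readers Brd2 and Brd3. They were chosen by gene symbol, and all 34 were found among the 49993 genes of the count table. RNA-seq was run on 3 libraries of blastocysts that developed in the female tract (in vivo) and 3 of blastocysts grown in culture from the zygote (in vitro). All females were superovulated with 10 IU of pregnant mare serum gonadotrophin followed after 48 h by 10 IU of human chorionic gonadotrophin (hCG), and were mated naturally, so the in vivo embryos were also products of superovulation. In vivo blastocysts were flushed on day 3.5. Zygotes for the in vitro group were collected 19 to 21 h after hCG and cultured in KSOM, a potassium-enriched medium, at 37 °C and 5% CO2. The sources used here give no strain, genotype or female age, nor the age of the cultured embryos. Descriptions of the samples speak of 1 inner cell mass per library, another label gives the cell type as embryonic stem cells, and the text on the design speaks of blastocysts.

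Lysine acetylation of histone tails loosens chromatin and is read by bromodomain proteins. Acetyltransferases, the writers, take the acetyl group from acetyl-CoA. The erasers fall into zinc-dependent deacetylases, most of which work as subunits of corepressor complexes, and sirtuins, which consume NAD+. In the preimplantation embryo these enzymes take part in the start of zygotic transcription and in the first lineage decisions, and Hdac1 is known as a deacetylase on which mouse embryonic development depends.

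Total counts per library ran from 6918288 to 17643429. The 18S ribosomal RNA gene Rn18s-rs5 made up 16.7%, 22.2% and 41.7% of all counts in in vivo replicates 1, 2 and 3, and 36.1%, 35.8% and 40.4% in vitro. Levels are CPM (counts scaled to a common library size) on library totals scaled by edgeR's trimmed mean of M values, and a library with 0 counts allows up to 0.216 to 0.527 CPM (3 counts, counting error only). All genes of the lineage lists had counts in at least 1 library: 8 of 8 epiblast genes, 6 of 6 primitive endoderm genes and 7 of 7 trophectoderm genes. Of the primitive endoderm genes, Sox7 had 0, 0 and 1 counts in vivo and 112, 425 and 32 in vitro. Foxa2 had 0 in all in vivo libraries and 196, 54 and 22 counts in vitro. The other genes of these lists had counts in every library. The summed trophectoderm level was 562 to 1189 CPM in vivo and 893 to 1553 CPM in vitro, so trophectoderm RNA was present although the descriptions name the inner cell mass. The summed primitive endoderm level was 169 to 299 CPM in vivo and 294 to 484 CPM in vitro, and the epiblast level 1729 to 1965 CPM and 1308 to 1905 CPM. Of 6 cumulus and granulosa markers, Fshr, Cyp19a1, Has2 and Ptx3 were at 0 in all 6 libraries, and the list summed to 5.73 to 11.7 CPM in vivo and 0 to 1.69 CPM in vitro. Amhr2 alone made up the whole in vivo sum. Foxl2 was at 0 in all in vivo libraries and had 2 counts in in vitro replicate 2. Of 7 uterine markers, Pgr, Ltf and Hand2 were at 0, and the list summed to 6.49 to 18.05 CPM in vivo and 8.37 to 47.6 CPM in vitro. Foxa2, which the primitive endoderm list holds too, made up 34.4 CPM of the highest sum and was at 0 in all in vivo libraries, while Muc1 was 4.65 to 15.5 CPM in vivo and 0.13 to 2.65 CPM in vitro. All 4 sperm markers were at 0, and the 5 blood markers summed to at most 3.22 CPM, with Ptprc, Hbb-bs and Lyz2 at 0. Whether these differences in lineage and 18S levels bear on the members' differences was not tested. In RNA of mixed cell types, fewer cells of a type cannot be told from less RNA per cell.

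Of the 34 members, 28 passed the filter on low counts and were tested. The other 6 (Sirt5, Hdac5, Hdac9, Hdac10, Hdac11 and Jade2) did not pass. Hdac10 and Jade2 were uneven and reached 2.87 and 2.28 CPM in in vitro replicate 2. Sirt5, Hdac5, Hdac9 and Hdac11 were at most 1.05 CPM in any library. Members differed more in level from each other than between the groups. The median within-group SD of log2 CPM was 0.72 for the members tested and 0.80 for all genes tested. The within-group SD of log2 CPM was larger than the difference between the groups for 17 of the 28 members (60.7%), against 58.2% of the 14301 genes tested. By edgeR's quasi-likelihood test, 0 of 28 members had an adjusted p below 0.05, and the same held for 0% of all genes tested. At an unadjusted edgeR p below 0.05 stood 3 of 28 members (10.7%): Sirt6, lower in vitro, and Hat1 and Brd1, higher in vitro. Of all genes tested, 10.2% reached that level, so the members' share was close to the background. With DESeq2, 1 member (Sirt6) had an adjusted p below 0.05, where 3.00% of 15775 genes did. With limma-voom, 0 of 28 members did, where 0.713% of genes did, and 6 of 28 members had an unadjusted p below 0.05, where 19.3% of all genes did.

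The 3 in vivo and 3 in vitro values did not overlap for 4 of 28 members (14.3%): Sirt6, which was lower in vitro, and Hat1, Ep300 and Jade3, which were higher in vitro. Of all genes tested, 19.3% did not overlap, 10.0% with lower and 9.27% with higher values in vitro. The members' share was thus not above that of all genes. On library totals without TMM scaling, which moved the median of all genes to −0.31, Sirt6 was again lower in all in vitro libraries, but Hat1, Ep300 and Jade3 overlapped. A log2 fold change (in vitro over in vivo) above 0 was found for 19 of 28 members (67.9%), against 49.8% of all genes, and the members' median was 0.40 against −0.01 for all genes. By family, 4 of the 6 tested sirtuins and both BET readers had negative values, and 3 of 3 tested scaffold subunits, both of Ep300 and Crebbp, and 4 of 5 MYST acetyltransferases had positive values.

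**Figure D1:**
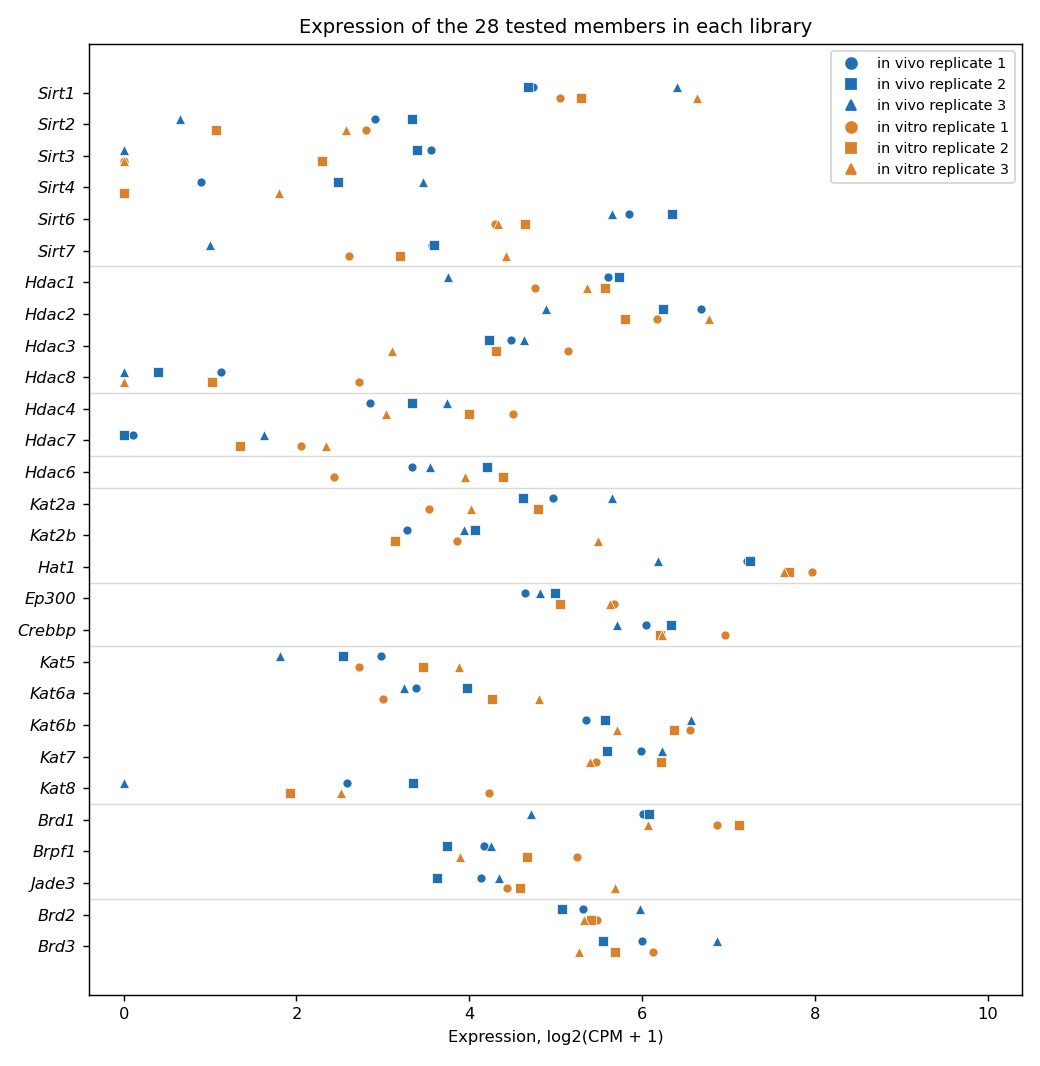
Level of the 28 tested members in each of the 6 libraries, as log2(CPM + 1) on the x axis, ordered by family with lines between families. Blue symbols are in vivo and orange symbols in vitro replicates. Hat1 stands highest in every library except in vivo replicate 3, and for Sirt6 the 3 blue points all lie right of the 3 orange points.

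**Figure D2:**
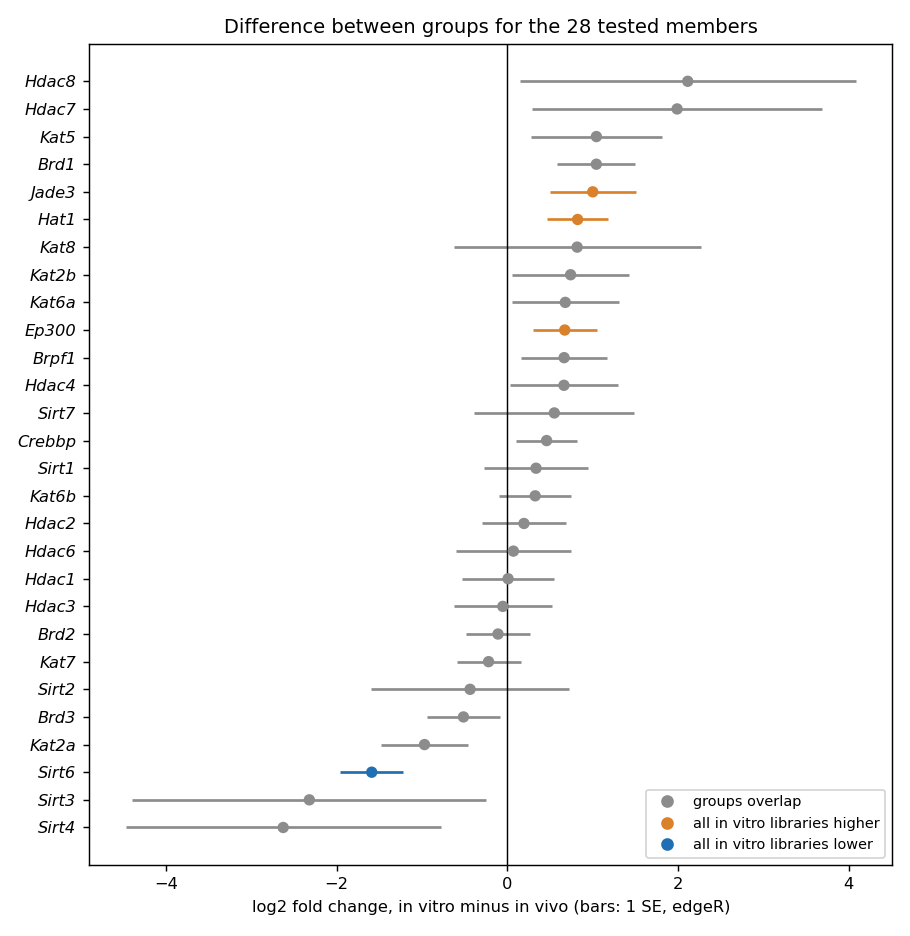
Log2 fold change (in vitro over in vivo) of each tested member with its standard error from edgeR, n = 3 libraries per group. Coloured points are members whose groups did not overlap (blue lower, orange higher in vitro). No member had an adjusted p below 0.05, and the low-count genes Sirt3, Sirt4, Hdac7 and Hdac8 have the widest errors.

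Sirtuins remove acetyl and other acyl groups from lysine. Sirt6, a nuclear sirtuin that deacetylates histone H3 and acts at telomeres and in DNA repair, had the clearest separation of the groups among the 28 members. It stood at 56.8, 80.1 and 49.1 CPM in the 3 in vivo libraries (724, 999 and 683 counts) and at 18.6, 24.0 and 19.1 CPM in the 3 in vitro libraries (106, 327 and 146 counts). Every in vitro value was below every in vivo value, and libraries of the same group lay within 1.63-fold (in vivo) and 1.29-fold (in vitro) of each other. The means were 62.0 ± 16.1 and 20.6 ± 3.00 CPM (SD, n = 3 each). The log2 fold change was −1.59 ± 0.37 (SE), with an unadjusted p of 0.0019 and an adjusted p of 0.315 in edgeR. DESeq2 gave −1.58 with an adjusted p of 0.0106, and limma-voom −1.66 with an adjusted p of 0.0684. With 1 library left out, the DESeq2 fold change stayed between −1.73 and −1.36. The DESeq2 adjusted p was then 0.066 with in vivo replicate 1 omitted, 0.198 with in vivo replicate 2 omitted and 0.0781 with in vitro replicate 1 omitted, which are above the threshold. Omitting any of the other 3 libraries left it below (0.00315, 0.0191 and 0.0448). On chromosome 10 Sirt6 spans 81621787 to 81627792 on the minus strand (GRCm38), and no annotated exon of another gene overlaps its exons.

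**Figure D3:**
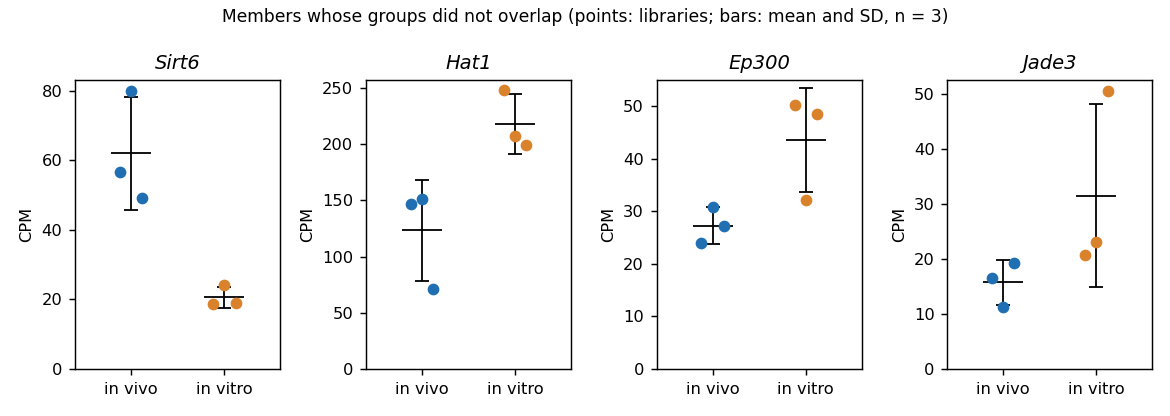
Level in CPM of the 4 members whose groups did not overlap, 1 point per library, with bars for the group mean and SD (n = 3). Sirt6 was lower in all 3 in vitro libraries (18.6 to 24.0 CPM against 49.1 to 80.1 CPM). Hat1, Ep300 and Jade3 were higher, Ep300 and Jade3 by a narrow gap.

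Sirt1, the nuclear sirtuin that deacetylates histones and p53, did not follow Sirt6. Its values were 25.6, 24.7 and 83.5 CPM for the flushed embryos and 32.1, 38.1 and 98.7 CPM for the cultured ones. The groups overlapped, because replicate 3 of each group stood far above its 2 companions. The log2 fold change was 0.34 ± 0.61 (SE), with an adjusted edgeR p of 0.894. Sirt2, a mainly cytoplasmic tubulin deacetylase, was low and uneven, at 6.51, 9.14 and 0.58 CPM in the in vivo libraries and 5.97, 1.10 and 4.97 CPM in the cultured ones. Sirt7, the nucleolar sirtuin linked to ribosomal RNA transcription, ranged from 1.01 to 11.1 CPM in vivo and from 5.09 to 20.4 CPM in vitro.

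The mitochondrial sirtuins Sirt3 and Sirt4 were uneven, each near 10 CPM in its highest library and at 0 in others, and Sirt5 was near the detection limit. Sirt3, the main mitochondrial deacetylase, had 137, 119 and 0 counts for the flushed embryos and 0, 53 and 0 counts in the cultured ones. Sirt4 had 11, 57 and 139 counts for the flushed embryos and 0, 0 and 19 counts for the cultured ones. Both overlapped between the groups, and their log2 fold changes of −2.32 ± 2.07 and −2.63 ± 1.85 (SE) had adjusted edgeR p-values of 0.751 and 0.668. The in vitro counts of each came from 1 library. Without in vitro replicate 2 for Sirt3, or in vitro replicate 3 for Sirt4, that group is at 0, and the fitted values of −9.16 and −8.91 then depend on the prior count (adjusted edgeR p 0.372 and 0.519). Sirt5, which removes succinyl and malonyl groups, had 3, 1 and 1 counts in vivo and 0, 1 and 5 in vitro. The GENCODE transcript of Sirt5 has stretches that are 95.9% to 97.6% identical to other genes, Wdr31 and Snhg14 among them. Whether this lowered its counts was not tested. Sirt3 shares 69 exonic bases with Ric8a on the opposite strand, and because the library kit does not mark strand, reads of the shared stretch cannot be assigned to either gene.

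Per kilobase of exon, which allows genes to be compared, Sirt6 and Sirt1 made up most of the sirtuin RNA. Sirt6 held 47.9%, 54.6% and 40.4% of the summed sirtuin level in vivo, and 32.6%, 34.3% and 15.2% in vitro. Sirt1 held 15.7%, 12.2% and 49.8% in vivo and 40.8%, 39.4% and 56.9% in vitro. Sirt6 was thus the leading sirtuin in in vivo replicates 1 and 2, whereas Sirt1 led in in vivo replicate 3 and in all 3 in vitro libraries. The summed level was 41.8, 51.7 and 42.8 CPM per kb in vivo and 20.2, 24.7 and 44.4 CPM per kb in vitro. Per kilobase of exon, the log2 ratio of Sirt6 to Sirt1 within a library was 1.61, 2.16 and −0.30 in vivo and −0.32, −0.20 and −1.90 in vitro. The groups overlapped in this ratio, and the difference of −1.97 had a two-sided exact permutation p of 0.2, where 3 against 3 libraries cannot go below 0.1.

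**Figure D4:**
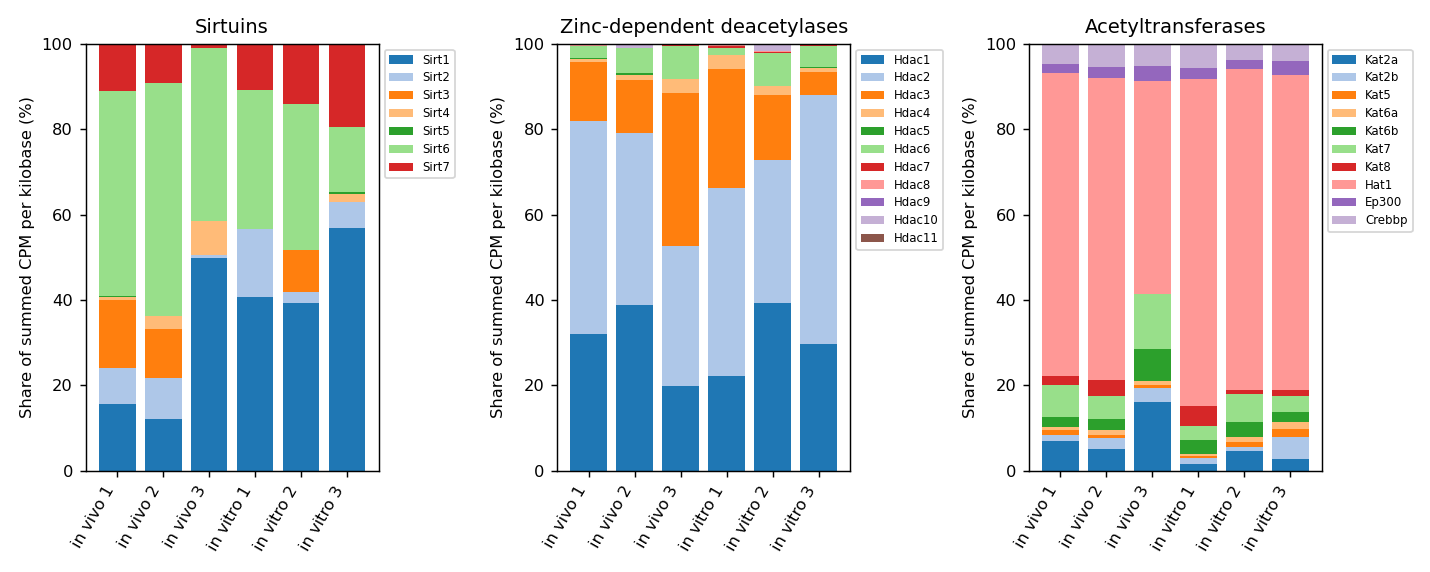
Share of the summed CPM per kilobase of exon that each gene holds within the sirtuins, the zinc-dependent deacetylases and the acetyltransferases, 1 bar per library. Sirt6 holds 40.4% to 54.6% of the sirtuin level in vivo and 15.2% to 34.3% in vitro, and Hat1 holds at least 49.9% of the acetyltransferase level in every library.

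The class I deacetylases Hdac1 and Hdac2 are the paired catalytic subunits of the Sin3, NuRD and CoREST complexes. Hdac1 stood at 47.5, 52.3 and 12.5 CPM for the flushed embryos and at 26.2, 46.7 and 40.1 CPM for the cultured ones. The groups overlapped, with in vivo replicate 3 the lowest of all 6 libraries. The means were 37.5 ± 21.7 and 37.7 ± 10.5 CPM (SD, n = 3 each), and the log2 fold change was 0.01 ± 0.54 (SE; adjusted edgeR p 0.998). Hdac2 stood at 102, 74.6 and 28.6 CPM in the in vivo libraries and at 71.3, 54.8 and 109 CPM in the cultured ones. Here too in vivo replicate 3 was the lowest, and the log2 fold change was 0.20 ± 0.49 (SE; adjusted edgeR p 0.927). Hdac3, the catalytic subunit of the NCoR and SMRT corepressors, ranged from 17.7 to 23.7 CPM in vivo and from 7.58 to 34.2 CPM in vitro, with a log2 fold change of −0.05 ± 0.58. Hdac8, which deacetylates the cohesin subunit SMC3, had 15, 4 and 0 counts in vivo and 32, 14 and 0 in vitro.

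The Hdac1 values depend on how reads were divided between the gene and a near-identical copy. The processed pseudogene Hdac1-ps (synonym Gm10093) lies on chromosome 17 from 78491565 to 78493541 on the plus strand in 1 exon (GRCm38), and its GENCODE transcript is 99.4% identical to Hdac1 over 1444 bases. It was given 2063, 1439 and 324 counts for the flushed embryos and 283, 505 and 106 counts in the cultured ones, more than Hdac1 itself in 4 of the 6 libraries. Hdac1 held 22.7%, 31.2% and 34.9% of the summed counts of both in vivo and 34.5%, 55.7% and 74.3% in vitro, and the groups overlapped in this share. Summed, gene and copy stood at 209, 168 and 35.8 CPM for the flushed embryos and at 75.9, 83.8 and 54.0 CPM for the cultured ones. The log2 fold change was then −0.95 ± 0.57 (SE; adjusted edgeR p 0.609), against 0.01 for Hdac1 alone, so the direction of Hdac1 cannot be told from these counts. Which share of the reads of the copy came from the gene was not tested.

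**Figure D5:**
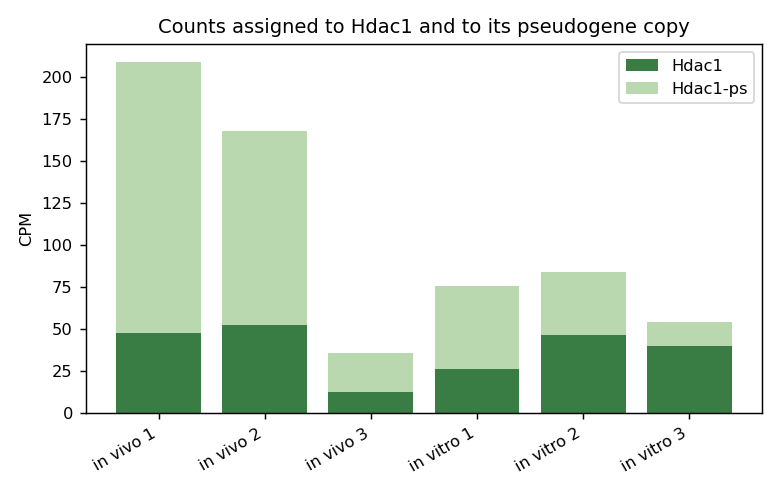
Level in CPM of Hdac1 (dark) and, stacked on it, of its pseudogene copy Hdac1-ps (light) in each library. The copy exceeds the gene in all 3 in vivo libraries and in in vitro replicate 1, and the sum of both is lowest in in vivo replicate 3.

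The class II and class IV deacetylases were low. Hdac4, a class IIa enzyme that shuttles between nucleus and cytoplasm, was the most abundant of its class, with 9.23 ± 3.09 CPM for the flushed embryos and 14.7 ± 7.30 CPM for the cultured ones (SD, n = 3 each; log2 fold change 0.66 ± 0.63). Hdac7, of the same class, had 1, 0 and 29 counts for the flushed embryos and 18, 21 and 31 counts for the cultured ones. Its groups overlapped, since in vivo replicate 3 exceeded in vitro replicate 2 on the CPM scale (2.09 against 1.54 CPM), and the log2 fold change was 1.99 ± 1.70 (SE; adjusted edgeR p 0.740). It was 5.83 without in vivo replicate 3 (adjusted edgeR p 0.261) and 4.94 with limma-voom (unadjusted p 0.00268, adjusted p 0.0876). Hdac6, the class IIb tubulin deacetylase, stood at 9.10, 17.4 and 10.6 CPM in the in vivo libraries and at 4.39, 20.0 and 14.5 CPM in the cultured ones. Hdac5 had 8, 12 and 0 counts in vivo and 2, 2 and 8 in vitro, and Hdac10 had 8, 21 and 1 in vivo and 0, 39 and 0 in vitro. Hdac9 had 1 count in all, in in vivo replicate 3, and Hdac11, the only class IV enzyme, had 0 in all 6 libraries. Both are at or under the level that 3 counts allow, and no fold is given. The GENCODE transcript of Hdac11 has a stretch of 594 bases that is identical to Gm44002, and whether this lowered its counts was not tested. Per kilobase, Hdac1, Hdac2 and Hdac3 were the 3 highest zinc-dependent deacetylases in every library, with Hdac2 between 32.8% and 58.4% of the summed level of the class I, II and IV enzymes.

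Among the acetyltransferases, Hat1 stood apart in level. It encodes the type B enzyme that acetylates newly made histone H4 before its assembly into chromatin. Per kilobase of exon Hat1 was the highest of the 34 members, at 108 CPM per kb over all libraries, against 27.0 for Hdac2, the next. Its values were 147, 151 and 71.6 CPM for the flushed embryos and 249, 207 and 199 CPM for the cultured ones. All 3 in vitro libraries were above all 3 in vivo libraries, and in vivo replicate 3 was the lowest. The means were 123 ± 44.8 and 218 ± 26.6 CPM (SD, n = 3 each), and the log2 fold change was 0.82 ± 0.36 (SE), with an unadjusted p of 0.0451 and an adjusted p of 0.481 in edgeR. Without in vivo replicate 3 it was 0.56. Of the summed level of the 10 acetyltransferases per kilobase, Hat1 held 71.2%, 70.7% and 49.9% in vivo and 76.6%, 75.2% and 73.8% in vitro.

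Kat2a (GCN5) and Kat2b (PCAF) are the alternative catalytic subunits of the SAGA and ATAC coactivators. Kat2a stood at 30.4, 23.6 and 49.2 CPM in the in vivo libraries and at 10.5, 26.8 and 15.2 CPM in the cultured ones. In vitro replicate 2 lay within the in vivo range, and the other in vitro libraries lay below it. The log2 fold change was −0.97 ± 0.51 (SE; unadjusted p 0.0875, adjusted edgeR p 0.552). Kat2b had 8.71, 15.8 and 14.4 CPM for the flushed embryos and 13.5, 7.79 and 43.8 CPM for the cultured ones, with in vitro replicate 3 far above the rest. Per kilobase of exon, the log2 ratio of Kat2a to Kat2b was 2.35, 1.13 and 2.32 in vivo and 0.19, 2.33 and −0.98 in vitro. The difference of −1.42 had an exact permutation p of 0.3.

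Ep300 and Crebbp encode p300 and CBP, the related coactivators that acetylate enhancer nucleosomes. Ep300 had the smallest spread of the 28 members. It stood at 23.9, 30.9 and 27.2 CPM in the in vivo libraries and at 50.2, 32.1 and 48.5 CPM in the cultured ones. The groups did not overlap, but in vitro replicate 2 and in vivo replicate 2 were 32.1 and 30.9 CPM. The means were 27.3 ± 3.47 and 43.6 ± 10.0 CPM (SD, n = 3 each), with a log2 fold change of 0.67 ± 0.37 (SE; unadjusted p 0.104, adjusted edgeR p 0.584). Crebbp stood at 65.2, 79.8 and 51.1 CPM for the flushed embryos and at 123, 72.7 and 73.9 CPM for the cultured ones. Its groups overlapped, with only in vitro replicate 1 above all in vivo libraries, and the log2 fold change was 0.46 ± 0.36 (SE; adjusted edgeR p 0.705). Per kilobase, Crebbp was the higher of the pair over all libraries (7.19 against 4.04 CPM per kb), and the log2 ratio of Ep300 to Crebbp differed by 0.21 between the groups (exact permutation p 0.5).

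The windows upstream of Hat1 and Ep300 are shown because these are acetyltransferases whose groups did not overlap. They come from RefSeq on GRCm38.p6, plus strand, and end at the base before the first annotated exon. Capitals mark the GC box GGGCGG, the ETS-type motif CCGGAAG and the CCAAT box, each searched on both strands, so that CTTCCGG and ATTGG are the latter 2 on the opposite strand.
Hat1, chr2:71389010-71389259: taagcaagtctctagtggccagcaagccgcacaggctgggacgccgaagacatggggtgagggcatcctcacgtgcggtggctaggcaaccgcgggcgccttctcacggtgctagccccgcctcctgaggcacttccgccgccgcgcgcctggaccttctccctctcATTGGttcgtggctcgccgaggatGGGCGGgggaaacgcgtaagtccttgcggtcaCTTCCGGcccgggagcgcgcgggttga
Ep300, chr15:81585964-81586208: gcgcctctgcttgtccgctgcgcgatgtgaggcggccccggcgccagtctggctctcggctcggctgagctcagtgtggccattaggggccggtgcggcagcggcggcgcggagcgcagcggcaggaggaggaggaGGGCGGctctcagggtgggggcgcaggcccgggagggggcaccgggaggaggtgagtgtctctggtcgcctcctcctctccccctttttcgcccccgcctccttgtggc
The Hat1 window held 27 CpG dinucleotides in 250 bases and 1 match each to the 3 motifs, and the Ep300 window held 24 CpG dinucleotides in 245 bases and 1 GC box. Of the 34 members, 29 matched by symbol, with 41 windows between them, while Hdac1, Hdac3, Hdac10, Kat6a and Jade2 had none. In the 250 bases before the start, GGGCGG was found in 25 of 41 member windows (61.0%) and in 32.7% of 32851 windows of all genes. CCGGAAG was found in 12.2% and 6.91%, and CCAAT in 34.1% and 33.8%. The palindromic core of the NRF1 motif was found in 4.88% (1 window each of Sirt6 and Brd2) and in 0.782%, and TATAAA in 4.88% and 12.4%. The median number of CpG dinucleotides was 17 in member windows and 6 in all windows. These matches describe letters only, and binding was not measured.

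The MYST acetyltransferases work in complexes with scaffold subunits. Kat8 (MOF), which acetylates histone H4, had 64, 115 and 0 counts in vivo and 101, 38 and 36 in vitro, or 5.02, 9.22 and 0 CPM and 17.7, 2.79 and 4.71 CPM. The groups overlapped widely (log2 fold change 0.82 ± 1.45, adjusted edgeR p 0.890). In vivo replicate 3, where Kat8 had no counts, was also the lowest library for Prss8, an antisense gene that overlaps Kat8 by 122 exonic bases and had 296, 210 and 11 counts in vivo and 45, 170 and 29 in vitro. Kat5 (TIP60), the catalytic subunit of the TIP60-p400 complex, stood at 6.90, 4.81 and 2.52 CPM in the in vivo libraries and at 5.62, 9.99 and 13.7 CPM in the cultured ones. Only in vitro replicate 1 lay inside the in vivo range, and the log2 fold change was 1.04 ± 0.76 (SE; adjusted edgeR p 0.682). The GENCODE transcript of Kat5 has a stretch of 426 bases that is identical to sequence of Rnaseh2c. In the annotation that was counted, the exons of these genes share no bases, and whether reads were divided between them was not tested.

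Kat7 (HBO1), which acetylates histone H3 at origins and promoters, and Kat6b (MORF) were the most abundant of the MYST enzymes. Kat7 averaged 61.2 ± 13.5 CPM without and 52.5 ± 18.2 CPM with culture (SD, n = 3 each; log2 fold change −0.22 ± 0.38). Kat6b ranged from 39.7 to 93.5 CPM in vivo and from 51.2 to 92.9 CPM in vitro (0.33 ± 0.42), and its paralog Kat6a (MOZ) from 8.48 to 14.7 and from 7.03 to 27.1 CPM (0.68 ± 0.63). The log2 ratio of Kat6a to Kat6b differed by 0.13 between the groups (exact permutation p 1).

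Brd1 and Brpf1 are scaffolds of the KAT7 and KAT6 complexes, and the JADE proteins are scaffolds of KAT7. Brd1 stood at 63.2, 66.5 and 25.2 CPM for the flushed embryos and at 115, 138 and 66.0 CPM for the cultured ones. The groups overlapped by a narrow margin, since in vitro replicate 3 was just under in vivo replicate 2. The means were 51.6 ± 23.0 and 106 ± 36.7 CPM (SD, n = 3 each), with a log2 fold change of 1.04 ± 0.46 (SE; unadjusted p 0.0473, adjusted edgeR p 0.485). Jade3, which is X-linked, stood at 16.5, 11.3 and 19.3 CPM in the in vivo libraries and at 20.7, 23.1 and 50.6 CPM in the cultured ones. The groups did not overlap, but in vitro replicates 1 and 2 were close to the in vivo range and replicate 3 was far above it. The log2 fold change was 1.00 ± 0.51 (SE; unadjusted p 0.0787, adjusted edgeR p 0.539), and 0.48 without in vitro replicate 3. Brpf1 had 15.8 ± 3.02 and 25.1 ± 11.5 CPM (log2 fold change 0.67 ± 0.50). Jade2 had 1, 0 and 0 counts in vivo and 4, 31 and 0 in vitro, a pooled ratio of 50.8 on the CPM scale, and 31 of its 36 counts came from 1 library. The 95% exact counting interval of 8.54 to 2064 leaves out variation between libraries. DESeq2, which includes it, gave an unadjusted p of 0.0618 for Jade2. The pooled ratio was 1.74 for Sirt5, 0.87 for Hdac5 and 1.89 for Hdac10.

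In vitro replicate 2 was the only library with almost no reads from Y-linked genes: 1 count over 4 Y genes and 7494 of Xist, against 1139 to 1693 and 8 to 341 in the other 5. Of the X-linked members, Hdac6 was highest in it (20.0 CPM against 4.39 to 17.4 in the others), while Jade3 (23.1 CPM) and Hdac8 (1.03 CPM) lay inside the range of the other libraries.

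The BET proteins bind acetylated histone tails through paired bromodomains. Brd2 stood at 39.0, 32.6 and 62.0 CPM for the flushed embryos and at 43.4, 41.3 and 39.2 CPM for the cultured ones. The in vitro values lay within the in vivo range and were closer to each other, and the log2 fold change was −0.11 ± 0.37 (SE; adjusted edgeR p 0.950). Brd3 stood at 62.7, 45.8 and 116 CPM in the in vivo libraries and at 69.0, 50.5 and 37.5 CPM in the cultured ones (−0.51 ± 0.43). For both genes in vivo replicate 3 was the highest library. The log2 ratio of Brd2 to Brd3 differed by 0.39 between the groups (exact permutation p 0.2). Of the 6 pairs compared in this way (Sirt6 to Sirt1, Hdac1 to Hdac2, Ep300 to Crebbp, Kat2a to Kat2b, Kat6a to Kat6b and Brd2 to Brd3), the values overlapped between the groups in each, and the adjusted permutation p-values ran from 0.60 to 1. Brd2 overlaps H2-DMa on the opposite strand by 332 exonic bases (98, 44 and 111 counts in vivo, 12, 18 and 20 in vitro), and its counts and those of Hdac1 also include copies annotated on alternate contigs.

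In vivo replicate 3 was often the extreme library of its group, among the members about as often as among all genes. It held the highest in vivo value for 12 of the 28 members and the lowest for 13, where among all genes tested it was highest for 38.8% and lowest for 46.8%. In vivo replicate 2 was highest for 12 and lowest for 9 members, and replicate 1 for 4 and 6. Over the 28 members, Spearman's rho of log2 CPM was 0.953 between in vivo replicates 1 and 2, but 0.806 and 0.791 between each of them and replicate 3. In vivo replicate 1 and in vitro replicate 2 had a rho of 0.932, higher than any pair within the in vitro group (0.775 to 0.880). Members differ widely in level and share a library's depth, so these values describe the libraries only. The members with the largest within-group SD of log2 CPM were Sirt3 (3.00), Kat8 (2.37), Hdac8 (2.05) and Sirt4 (1.98), all with 0 counts in at least 1 library, and those with the smallest were Ep300 (0.28) and Sirt6 (0.29).

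Other genes of acetylation were described from 5 lists. With edgeR, 0 genes of any list had an adjusted p below 0.05. Of 37 partners of deacetylase complexes, all tested, 26 were higher in vitro by log2 fold change and 11 lower (median 0.20). Of these, 1 (2.70%) reached an unadjusted edgeR p below 0.05, against 10.2% of all genes tested. That gene, Tbl1xr1, a subunit of the NCoR and SMRT corepressors with Hdac3, averaged 52.0 ± 15.3 CPM without and 145 ± 44.4 CPM with culture (1.47 ± 0.38; adjusted p 0.321 in edgeR and 0.0388 in DESeq2). Next in order of p were Brms1 (−1.19 ± 0.58) and Arid4b (0.83 ± 0.46), both subunits of Sin3 complexes.

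Of 45 partners of acetyltransferase complexes, all tested, 26 were positive and 19 negative (median 0.21). Of these, 2 (4.44%) reached an unadjusted edgeR p below 0.05, 1 in each direction, against 10.2% of all genes tested. Jade1, another scaffold of the KAT7 complex, averaged 34.9 ± 16.1 CPM without and 111 ± 38.2 CPM with culture (1.67 ± 0.45; adjusted p 0.332 in edgeR and 0.0447 in DESeq2). Dmap1, a subunit of the TIP60 complex, had 28.7 ± 3.32 and 11.1 ± 4.79 CPM (−1.37 ± 0.49), and Eny2, of the SAGA deubiquitinating module, 23.8 ± 1.43 and 41.7 ± 9.37 CPM (0.81 ± 0.38). Jade1, named here for its small p, was higher in each in vitro library than in any in vivo library, as were Jade3 and 9.27% of all genes tested. On library totals alone, the groups of Jade3 overlapped.

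Of 10 other acetyltransferases and coactivators, 7 were positive and 3 negative (median 0.26). Ncoa2, a nuclear receptor coactivator that recruits p300 and CBP, stood at 7.45, 10.0 and 2.88 CPM for the flushed embryos and at 57.1, 22.3 and 66.3 CPM for the cultured ones. Every in vitro value was above every in vivo value, and the log2 fold change was 2.84 ± 0.62 (SE; adjusted p 0.306 in edgeR and 0.00158 in DESeq2). Taf1, the largest subunit of TFIID, had 1.30 ± 0.67, and Esco2, which acetylates cohesin, −0.86 ± 0.45.

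Of 31 other acetyl-lysine readers, 29 were tested, 16 with positive and 13 with negative values (median 0.23). An unadjusted edgeR p below 0.05 was reached by 4 of the 29 (13.8%), against 10.2% of all genes tested, and each of the 4 was higher in vitro. The 3 of smallest p were Pbrm1, a bromodomain subunit of the PBAF remodeller (30.7 ± 5.32 and 67.9 ± 7.50 CPM, log2 fold change 1.15 ± 0.34), Baz1b (15.1 ± 3.50 and 37.2 ± 7.03 CPM, 1.30 ± 0.42) and the YEATS-domain gene Yeats4 (16.3 ± 13.4 and 61.1 ± 18.6 CPM, 1.91 ± 0.62). Of 8 genes of acetyl-CoA supply, 3 were positive and 5 negative (median −0.10). Dlat, a subunit of pyruvate dehydrogenase, had 27.97 ± 6.78 and 56.2 ± 20.8 CPM (1.01 ± 0.41, unadjusted edgeR p 0.0372), whereas Pdhb, another subunit, had −0.37 ± 0.30 and Acss2, the nuclear and cytoplasmic acetyl-CoA synthetase, −0.55 ± 0.78.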

How the data were processed

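RNA was extracted with a micro-scale kit and libraries were made with a transposase-based kit, per the labels' protocols. The deposited table holds raw counts of genes by library, made by the authors. The aligner, counter and strand setting are not stated (not given in the sources used here). FastQC 0.11.2, DESeq2 and GRCm39 are named in the submitters' processing notes, but the table's coordinates equal RefSeq genes on GRCm38.p6 for 49589 of 49628 genes compared, so GRCm38 is used. Groups were taken from the sample titles. Nothing in the labels says whether a group's libraries came from separate embryos or females beyond the replicate number, so p-values reflect only how these libraries vary, which may be technical.

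Counts were analysed as deposited in R 4.3.3 with edgeR 4.0.16: filter on low counts by group (14301 genes kept), TMM scaling, legacy quasi-likelihood F-test with robust moderation, two-sided, with p-values adjusted by Benjamini-Hochberg across the genes kept and called below 0.05 (common biological coefficient of variation 0.727). Standard errors came from the F statistic. CPM per kb used exon lengths on primary chromosomes. Ratios were of counts per kilobase of exon, with a prior count of 0.5 and an exact permutation test over libraries. Log2 CPM used a prior of 2 counts. Alternatives were limma 3.58.1 (voom with quality weights) and DESeq2 1.42.0, beside other scalings and filters, a replicate block, each library left out and, added after the data were seen, DESeq2 with each library left out and Hdac1 summed with its copy. The edgeR, DESeq2 and limma fits were first tested on simulated data. Intervals and floors cover counting error only.

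The members and lists were chosen with earlier results of these data known. All 34 members were named. Values in every library were given for those with an unadjusted p below 0.05 or groups that did not overlap and for a set of main enzymes, and from each list the 3 genes of smallest p were named. Some further members were given in full after their values were seen.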

Additional observations from a re-analysis of the deposited data

How the results depend on the processing

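No member passed the edgeR threshold in any edgeR setting. Genes called (0 in edgeR) numbered 473 with DESeq2, 102 with limma-voom, 3 with edgeR's newer form and 391 without the filter. Members called were 1 with DESeq2 (Sirt6), 2 once in vivo replicate 3 was dropped (with Hdac7), 1 without in vitro replicate 2, 2 without in vitro replicate 3 (with Sirt4, then at 0 in vitro), and 0 without any of the other 3. DESeq2 called 938 genes (3.44% of 27240) with in vivo replicate 3 dropped. It called 855 (3.17% of 26934) and 373 (1.41% of 26408) with in vitro replicates 2 and 3 dropped in turn. Where no member was called, 152 to 310 genes were (0.563% to 1.16%). With all 6 libraries, the 473 genes were 1.71% of the 27689 fitted, the base of these shares, rather than of the 15775 above. Members with an unadjusted p below 0.05 (3) were 6 with limma-voom (19.3% of all genes), 1 on library totals alone (8.41%), and 1 to 3 with a library left out (5.61% to 14.2%; 1 each without replicate 1 of either group). Members whose groups did not overlap (4) were 6 to 11 with a library left out (11 when in vivo replicate 3 was dropped, 8 for in vitro replicate 3, 7 for replicate 2 of either group), where 24.1% to 37.5% of all genes did not overlap (37.5% for in vivo replicate 3), since fewer libraries overlap less readily. On library totals alone, which moved the median of all genes to −0.31, they were Sirt6 and Kat2a (lower) and Hdac7 (higher), while Hat1 (0.41), Ep300 (0.33) and Jade3 (0.69) overlapped. These were 3 of 28 members (10.7%), against 16.2% of all genes tested. With DESeq2 size factors in edgeR they were 5 of 28 (17.9%), with Brd1 added, against 19.2% of all genes tested. Of 422 values of members under alternatives, 388 kept direction and side, and 17 members kept their direction in every setting, Sirt6 with −1.92 to −1.36. Direction changed with limma-voom for Sirt7 (−0.15), Hdac1 (−0.31), Hdac2 (−0.23), Kat7 (0.0052), Kat8 (−0.17) and Brd2 (0.19), and on library totals for Hdac1 (−0.41), Hdac2 (−0.30) and Hdac6 (−0.19). Hdac1 was −0.0078 without 18S, −0.0157 unfiltered and −0.95 with its copy. With a library left out, values ran from −0.34 to 1.17 (Sirt1), −0.97 to 0.16 (Sirt2), −0.20 to 0.91 (Sirt7), −0.40 to 0.32 (Hdac1), −0.17 to 0.58 (Hdac2), −0.65 to 0.34 (Hdac3), −0.40 to 0.49 (Hdac6), −0.28 to 1.13 (Kat2b), −0.33 to 1.72 (Kat8) and −0.30 to 0.21 (Brd2), and the ratios from −0.51 to 0.11 (Hdac1 to Hdac2) and −0.54 to 0.85 (Kat6a to Kat6b). The cause was not tested. The labels do not say whether same-numbered libraries were paired, and the correlations of their deviations (−0.0986, 0.0960 and −0.0443) cannot decide it. With a replicate block, 0 genes and 0 members were called, 3 members had an unadjusted p below 0.05, and Hdac6 was −0.12.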
